A study of Danio rerio with 6 samples.

Results

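Open chromatin of zebrafish blood was compared between adults of 12 months and adults of 10 months. The comparison used 4 of the 6 ATAC-seq libraries of the series: the cortisol-treated and the DMSO-control library labelled 12 months, against the cortisol-treated and the DMSO-control library labelled 10 months. The remaining 2 libraries, labelled 11 months, were set beside them as a description. All fish were of the AB strain. Cortisol-treated fish had spent the first 5 days of life in 1 µM cortisol and control fish in DMSO, the vehicle, and all were then raised to adulthood under normal conditions. The methods of the study describe blood pooled from 6 fish of mixed sex per library, whereas the series description speaks of individual fish, so that n = 2 libraries per age counts pools or single animals. The labels give replicate number 1 to the 12 month libraries, 2 to the 11 month libraries and 3 to the 10 month libraries. The paper describes the controls of each replicate as siblings of the treated fish, so the 2 libraries of an age share 1 sibling group. Age, sibling group, replicate number, depth and enrichment therefore run together and cannot be told apart in what follows. P-values of regions rest on disagreement between the treatment pairs, with 1 residual degree of freedom, and mostly on spread borrowed across regions. They do not measure the spread between sibling groups of the same age.

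In ATAC-seq a transposase cuts DNA where chromatin is open and leaves sequencing adapters behind, and promoters and enhancers in use stand out as peaks of aligned reads. The red blood cells of fish keep their nucleus, and they make up most of the cells of blood. Open chromatin of whole fish blood is therefore dominated by erythroid cells, whose known regulators include the transcription factors *gata1a* and *tal1*. In a bulk sample, fewer cells with an open region and less opening per cell cannot be told apart.

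The 4 peak lists, joined where peaks overlapped by at least 1 bp, gave 133528 regions, of which 15148 (11.3%) had a peak in all 4 libraries. These 15148 regions are the ones compared. The unit is the percentile of a region's MACS2 score among them within a library, where 100 is the highest score, and a difference is given in percentile points, 12 minus 10 months. A percentile ranks regions within a library and says nothing of a change that all regions share. Where some regions rise in rank, others fall. The steps between scores also gave, for each library, the background and the height of each summit in reads. The background is the number of reads that the peak caller expected at a position, for the genome size the authors set. Ratios to background depend on that setting and serve here to compare libraries and regions.

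The lists differed greatly in length. The 12 month libraries held 49583 peaks (cortisol-treated) and 138146 peaks (control), against 26905 and 29401 peaks in the 10 month libraries. Both 12 month lists were longer than both 10 month lists, and the two-sided exact permutation test gave p = 0.333, the smallest that 4 libraries allow. Of all merged regions, 86615 (64.9%) had a peak in the control library of 12 months alone. A peak was present in both 12 month and neither 10 month library at 10769 regions, and in both 10 month and neither 12 month library at 811 regions.

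The background was 5.72 and 9.06 reads in the cortisol-treated and control libraries of 12 months, against 1.99 and 3.39 reads in those of 10 months. The median summit of the shared regions stood 12.9 and 6.74 times above background at 12 months, against 27.7 and 20.7 times at 10 months. The 12 month libraries were thus deeper and less enriched than the 10 month libraries, without overlap. Over the 15148 regions the percentiles correlated by Pearson's r = 0.875 between the 12 month libraries and r = 0.951 between the 10 month libraries. The cortisol-treated library of 12 months was about as close to the control library of 10 months (r = 0.882) as to its own age mate, and the control library of 12 months stood farthest from the others, with r = 0.689 to the cortisol-treated library of 10 months. Regions are not independent replicates, and these values describe the libraries.

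**Figure D1:**
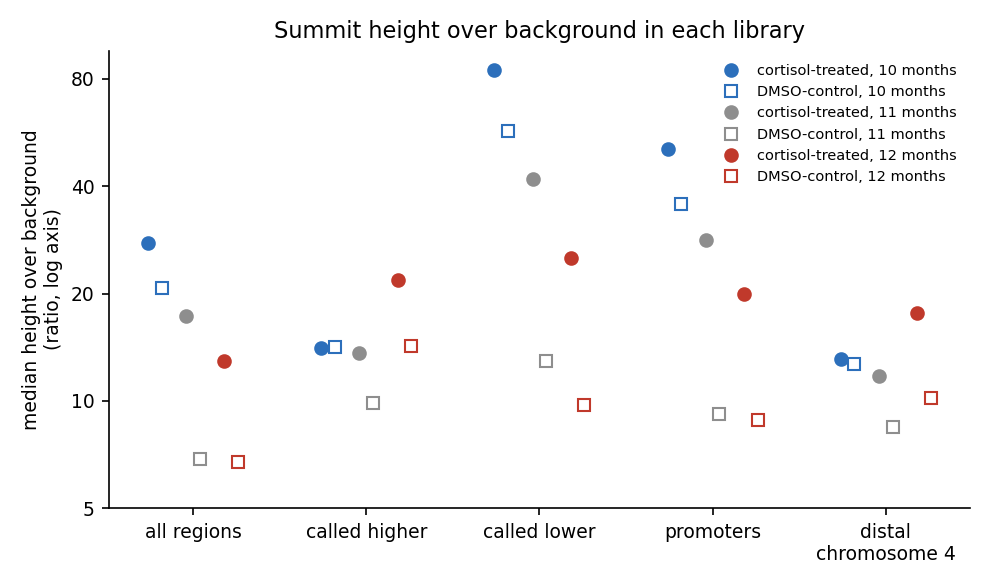
Median summit height over background (ratio, log axis) in each of the 6 libraries for 5 sets of regions. Filled circles are cortisol-treated and open squares DMSO-control libraries, in blue for 10, grey for 11 and red for 12 months. Over all regions the 12 month medians were 12.9 and 6.74, below the 10 month medians of 27.7 and 20.7, whereas for the regions called higher at 12 months they were 21.8 and 14.2, against 14.1 and 14.2 at 10 months.

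The regions called higher at 12 months were mostly narrow and outside the annotated table, and those inside it mostly carried a repeat element, foremost retrotransposons of the DIRS1 family. The regions called lower were mostly promoters (257 of 393, 65.4%), beside 4299 promoters among all 15148 regions. Promoters are known only inside the annotated table, which held 366 of the 393 and had 4299 promoters among its 8640 regions. limma, with treatment as a block and Benjamini-Hochberg adjustment over all 15148 regions, called 1756 regions (11.6%) at an adjusted p below 0.05. Of these, 1363 (9.00% of all regions) were higher and 393 (2.59%) were lower at 12 months. All 1363 rose and all 393 fell in both the cortisol-treated and the control pair. The fit nearly ensures this, because disagreement between the pairs is its only residual. Both 12 month libraries stood above both 10 month libraries at 2976 regions (19.6%) and below both at 5475 regions (36.1%). The median difference over all regions was -2.25 points.

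The regions called higher had median percentiles of 70.7 and 81.6 in the cortisol-treated and control libraries of 12 months, against 23.8 and 33.4 in those of 10 months. The regions called lower had medians of 75.2 and 67.9 at 12 months, against 86.8 and 85.7 at 10 months. The higher set had thus moved by a median of 41.4 points, and the lower set by -14.7 points. The differences of the cortisol-treated pair and of the control pair correlated across regions with r = 0.62 and had the same sign at 67.7% of regions.

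Both counts rest on the scale and on the model. Without a trend of variance on rank, limma called 0 regions in either direction, with 2936 at an unadjusted p below 0.05, against 3705 in the fit with the trend. When height over background was tested in place of rank, 22 regions were higher and 12067 lower at 12 months, around a median shift of -1.42 on the log2 scale, and 21 of those 22 were also called higher by rank. Relative to background, the regions called higher by rank had a median difference of 0.29 and those called lower of -2.18 on the log2 scale. Leaving out 1 library moved the counts by over 1.5 times, except the number called higher without the cortisol-treated library of 12 months. The counts were 2013 higher and 2150 lower without the cortisol-treated library of 12 months, 793 and 187 without the control library of 12 months, 689 and 8 without the cortisol-treated library of 10 months, and 896 and 48 without the control library of 10 months.

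**Figure D2:**
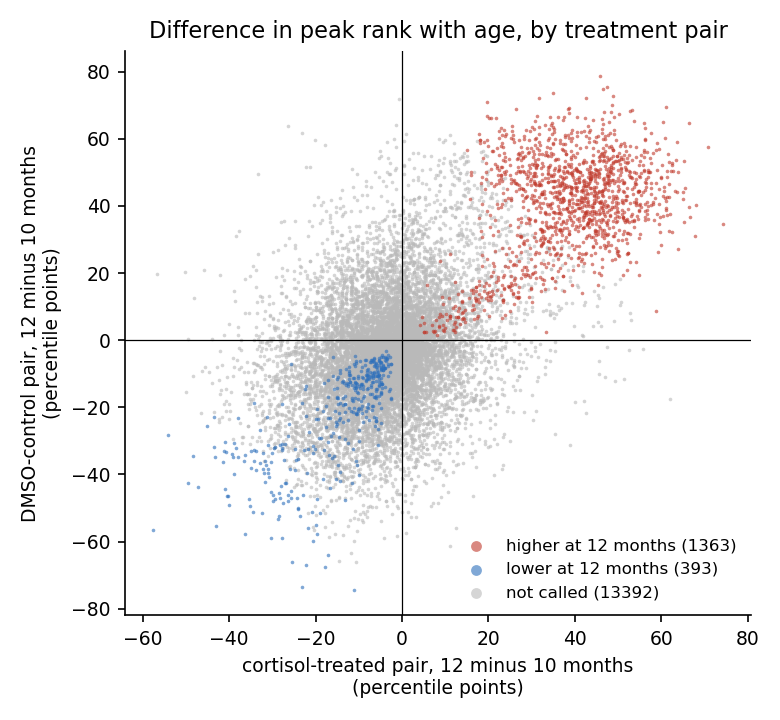
Difference in percentile between 12 and 10 months at each of 15148 regions, in the cortisol-treated pair (horizontal axis) and in the DMSO-control pair (vertical axis), in percentile points. Red points are the 1363 regions called higher at 12 months, blue points the 393 called lower and grey points those not called. The red points had medians of 39.1 points in the cortisol-treated pair and 42.5 in the control pair. They were called from these same differences.

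The regions that ranked higher at 12 months were short. Their median width was 341 bp, against 599 bp over all regions and 676 bp for the regions called lower. Of the 2063 regions up to 400 bp wide, 843 (40.9%) were called higher and 2 lower. Within a window of 300 to 349 bp, chosen after the values were seen, 466 of 694 regions (67.1%) were called higher and 0 lower. These 466 make up 34.2% of all regions called higher. The share called higher was 2.50% among regions over 400 and up to 600 bp wide, 2.96% over 600 and up to 1000 bp, and 9.96% above 1000 bp. Width is the span of the joined peaks of the same 4 libraries and is not a separate measurement. Without the cortisol-treated library of 10 months, 492 of the 2063 narrow regions stayed above the threshold, and by height over background 7 did.

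The authors' annotated table, which names the nearest gene, covered 57.0% of all regions but only 198 of the 1363 called higher (14.5%), and distance from genes is known for these alone. Outside the table, 1165 of 6508 regions (17.9%) were called higher and 27 lower, whereas inside it 198 of 8640 (2.29%) were higher and 366 lower. Regions outside the table had median percentiles of 22.54 (cortisol-treated) and 22.69 (control) at 10 months, against 70.27 and 69.99 inside it. They had more room to rise and less to fall. In log2 height, centred on the median of each library, the median difference was 0.37 outside and -0.23 inside the table. The table comes from the authors' comparison of cortisol-treated with control fish. The parts of room in rank and of table membership were not tested. Inside the table, the share called higher was 0.06% within 1 kb of a transcription start, 1.2% between 1 and 10 kb, 5.21% between 10 and 100 kb and 16.5% beyond 100 kb. The share called lower was 5.57%, 2.32%, 2.92% and 1.65% over the same steps of distance. The share called higher was thus larger at each step of distance. Of the 198 regions, 164 carried a repeat element, and the part of repeats in this gradient was not tested. Outside the table the number called higher was 516 without the cortisol-treated library of 10 months, 703 without the control library of 10 months, 645 without the control library of 12 months, 1797 without the cortisol-treated library of 12 months and 22 by height over background.

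By annotation class, 40 of 920 introns (4.35%) and 155 of 3033 intergenic regions (5.11%) were called higher, and 13 and 83 lower. Exons had 0 higher and 2 lower of 160. Median differences were -2.62 points for introns, -2.87 for intergenic regions, -3.74 for exons and -5.51 for promoters.

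Most regions of the table that ranked higher at 12 months carried a repeat element, a pattern that was noticed after the values were seen. The table names a repeat at 429 of its 8640 regions (4.97%), and 164 of these 429 (38.2%) were called higher and 3 lower, beside 2.29% and 4.24% of all regions in the table. Of the 8211 regions without a named repeat, 34 (0.414%) were called higher and 363 lower. Repeats thus made up 164 of the 198 regions of the table called higher (82.8%), against 3 of the 366 called lower (0.82%). Among regions up to 400 bp wide, 155 of 193 with a repeat (80.3%) and 18 of 160 without one (11.25%) were called higher. The number of repeat regions called higher was 123 to 161 on leaving out each library, and the number without a repeat was 55 without the cortisol-treated library of 12 months. By height over background 0 regions of the table were called higher.

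Retrotransposons copy themselves through RNA, and those with long terminal repeats (LTR) are silenced in most tissues by DNA methylation and repressive histone marks. DIRS1 elements, listed among them by the table, insert with a tyrosine recombinase in place of the usual integrase. Of 113 LTR regions, 95 (84.1%) were called higher and 0 lower, and 93 of these 95 belonged to 2 related elements, DIRS1 (44 of its 45 regions) and DIRS1a (49 of its 50 regions). The 95 DIRS1 and DIRS1a regions lay on 23 chromosomes, 8 of them on chromosome 4. Their width was 286 to 480 bp with a median of 338 bp, and 63 of them fell in the window of 300 to 349 bp.

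The DIRS1 and DIRS1a regions had median percentiles of 93.4 and 96.4 in the cortisol-treated and control libraries of 12 months, against 63.3 and 73.5 in those of 10 months. The median heights were 352 and 322 reads at 12 months, against 76 and 126 reads at 10 months. Both 12 month libraries stood above both 10 month libraries at 94 of the 95 regions, beside 19.6% of all regions. The difference in percentile had a median of 26.6 points and ran from -17.83 to 48.55 points. The 11 month libraries had medians of 76.4 (cortisol-treated) and 90.7 (control), and both lay between the age means at 87 of the 95. This compares with 48.9% of the regions called higher and 20.8% of all regions. A called region has its age means farther apart, which widens the space between them. On leaving out each library 80 to 93 of the 95 were called higher.

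Over background the same regions stood 61.5 and 35.6 times at 12 months, against 38.2 and 37.2 times at 10 months, so that the ages overlapped on that scale. The difference was positive at 91 of the 95 regions, with a median of 0.28 on the log2 scale beside -1.42 over all regions, and 0 were called higher and 1 lower. Copies of an element resemble one another, the reads kept 30 bp, and reads that matched up to 3 places were reported at 1 of them. The 95 regions are therefore not independent, and the part of such reads in their ranks was not tested.

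Other families of repeats followed in part. DNA transposons, which move by cut and paste, had 28 of 132 regions (21.2%) called higher and 2 lower. LINE retrotransposons had 17 of 44 (38.6%) higher and 0 lower, but 5 without the control library of 12 months. Helitrons, which replicate by a rolling circle, had 7 of 9 higher. Single elements ranged widely. All 5 regions of the DNA transposon LOOPERN1 were called higher, with median percentiles of 82.0 and 86.1 at 12 months, against 33.2 and 47.1 at 10 months, and so were all 5 of HATN9 and all 6 of the LINE element L2-2. By contrast, 0 of 9 regions of the DNA transposon DNA-8-13 and 1 of 10 of DNA25TWA1 were called higher. Satellite DNA had 8 of 33 called higher, with median percentiles above 98 in all 6 libraries, and simple repeats had 3 of 66. Ranks as high as those of satellites have little room to rise. In log2 height, centred on the median of each library, satellites differed by a median of 1.63, beside 1.64 for DIRS1 and DIRS1a. Over background the medians were 0.27 and 0.28 on the log2 scale, and 0 satellite regions were called higher there.

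The distal part of chromosome 4 had a high share of regions called higher, but held only 139 of the 1363 such regions (10.2%). The long arm of zebrafish chromosome 4 is known to be rich in repeats and heterochromatin and poor in ordinary genes, with many zinc finger genes. Of 207 regions on chromosome 4 beyond 30 Mb, a boundary set after the values were seen, 139 (67.1%) were called higher and 2 lower, with a median difference of 39.1 points. Of the 383 regions below 30 Mb, 27 (7.05%) were called higher and 17 lower, with a median of -2.85 points. The boundary was not sharp, because 19 of these 27 lay between 25 and 30 Mb, among 51 regions there. Nor was the distal part uniform. Between 70 and 75 Mb, 4 of 29 regions were called higher and 2 lower, with a median of -6.30 points. Over the other chromosomes the share called higher ran from 4.98% on chromosome 25 to 10.6% on chromosome 24. On unplaced scaffolds 89 of 285 regions (31.2%) were called higher and 2 lower, but 40 were higher without the cortisol-treated library of 10 months and 43 without the control library of 12 months.

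The distal chromosome 4 regions had median percentiles of 62.6 and 69.9 in the cortisol-treated and control libraries of 12 months, against 21.2 and 28.7 at 10 months. Their median heights were 101 and 92 reads, against 26 and 43 reads. Over background these were 17.6 and 10.2 at 12 months, against 13.1 and 12.7 at 10 months, so the groups overlapped on that scale and only 1 of the 207 regions was called higher there. Narrow regions of distal chromosome 4 were called higher at 96 of 110, and wider ones at 43 of 97. Elsewhere in the genome 747 of 1953 narrow regions (38.2%) were called higher. The count on distal chromosome 4 was 68 without the cortisol-treated library of 10 months, 88 without the control library of 10 months and 88 without the control library of 12 months. The alignment kept reads that matched up to 3 places and reported 1 of them, and the part of such reads in these regions was not tested.

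**Figure D3:**
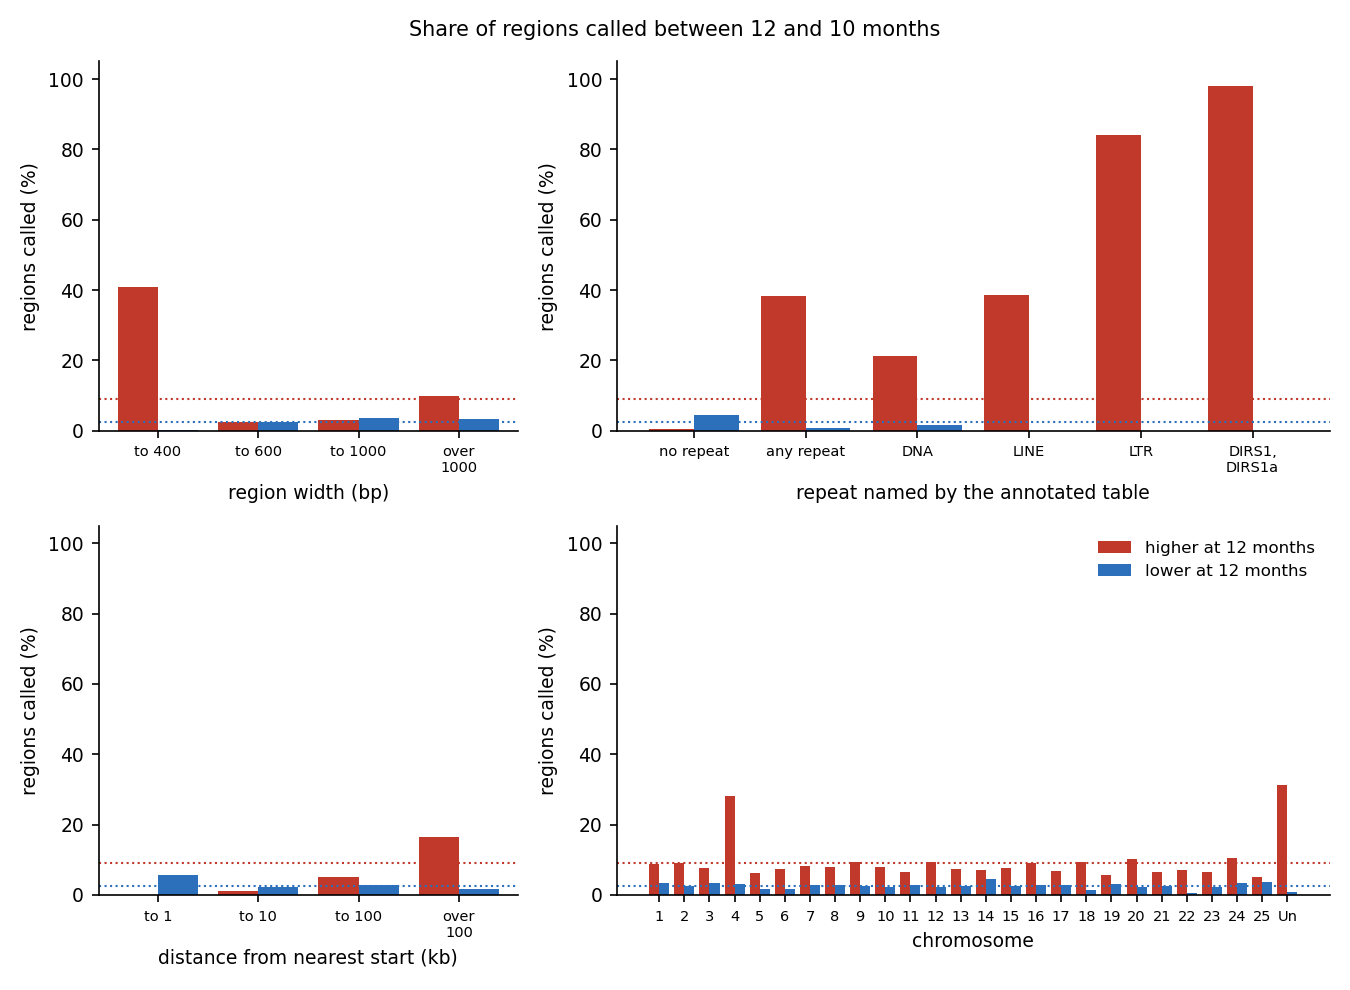
Share of regions called higher (red) and lower (blue) at 12 months than at 10 months, in percent, by region width, by the repeat and by the distance from the nearest transcription start (regions in the annotated table), and by chromosome (Un, unplaced scaffolds). Dotted lines are the shares over all regions, 9.00% and 2.59%; the red bars of DIRS1 and DIRS1a elements (97.9%), of regions up to 400 bp (40.9%), beyond 100 kb (16.5%), chromosome 4 (28.1%) and unplaced scaffolds (31.2%) rise above their line.

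The 10 regions of the table with the largest higher ranks stood between the 73.8th and 87.4th percentile in the 12 month libraries, against the 14.7th to 41.8th in the 10 month libraries. None was a promoter, 9 were up to 400 bp wide, 5 lay on distal chromosome 4 and 6 carried a repeat. The largest was a region of 295 bp in an intron of another transcript on chromosome 4 (chr4:40819823-40820117, GRCz10), 145301 bp from the start of the non-coding gene *si:ch211-181p13.2*. Its percentiles were 77.9 and 82.9 in the cortisol-treated and control libraries of 12 months, against 25.1 and 14.7 at 10 months. In reads, its summit reached 158 and 135 at 12 months, against 29 and 30 at 10 months. The difference was 60.54 points (SE 9.62, adjusted p = 0.00198), and the 11 month libraries lay between, at 32.0 (cortisol-treated) and 41.7 (control).

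Others lay near genes of known function. *gss*, which encodes glutathione synthetase, had an intronic region of 300 bp with a HATN9 transposon (chr23:14989662-14989961) at percentiles 73.8 and 75.6 at 12 months, against 21.2 and 20.5 at 10 months. *mbd3a*, a member of the methyl-CpG-binding domain family, was the nearest gene, at 40851 bp, to a region of 317 bp with a LOOPERN1 transposon in an intron of another gene (chr2:57010070-57010386), at 82.2 and 87.4, against 27.3 and 38.5. A region of 324 bp lay 72435 bp from the start of *tbx2a*, a T-box transcription factor gene (chr5:55915891-55916214), at 78.1 and 81.6, against 27.3 and 30.6. All of these groups stood apart by more than 40 points. The differences were 53.84 points (SE 9.64) for *gss*, 51.85 (SE 7.85) for *mbd3a* and 50.86 (SE 8.68) for *tbx2a*, with adjusted p of 0.00365, 0.00148 and 0.00286.

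On distal chromosome 4 the remaining members were near *si:dkey-122c11.1* (55.42 points), *zgc:174696* (55.22 points), *zgc:174710* (54.22 points) and the zinc finger gene *znf1147*, whose start was 773426 bp away (49.53 points). The list was completed by a region 21435 bp from *zgc:92113* on chromosome 23 (58.75 points) and one listed as nearest to *rwdd* on chromosome 7 (53.77 points). The adjusted p of the 10 regions ran from 0.00145 to 0.00370. Higher still were 3 regions outside the table, at 65.47 points on chromosome 7 (chr7:3769998-3770437), 65.33 on chromosome 6 (chr6:69717-71016) and 64.15 on chromosome 12 (chr12:12914615-12914955). The first of them had 112 and 164 reads at its summit at 12 months, against 11 and 37 reads at 10 months. Over background these 3 were higher at 12 months by 1.12 to 1.28 on the log2 scale and kept their call there, and the 10 regions of the table were higher by 0.47 to 0.84 without passing the threshold. All 13 kept their call on leaving out any of the 4 libraries.

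The regions that fell most in rank were wider and mostly promoters. The 9 of the table described here stood between the 2.40th and 49.1th percentile in the 12 month libraries, against the 54.9th to 78.7th in the 10 month libraries, and 6 of them were promoters. The largest fall was at an intergenic region of 851 bp (chr25:18790992-18791842) 63984 bp from *si:ch211-68a17.7*, with percentiles 22.7 and 10.6 at 12 months, against 65.6 and 65.8 at 10 months (-49.10 points, SE 10.23, adjusted p = 0.00893). The promoter of the same gene (chr25:18855139-18856034) was lower as well, by -43.33 points (SE 11.07). Its control library of 12 months stood at 2.40 and its cortisol-treated one at 34.3, against 62.2 (cortisol-treated) and 61.2 (control) at 10 months.

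The promoter of *ncapd3*, which encodes a subunit of condensin II, a complex that compacts chromosomes (chr1:20869855-20870543), had percentiles of 34.3 and 21.5 at 12 months, against 74.5 and 70.6 at 10 months. Its difference was -44.61 points (SE 9.43, adjusted p = 0.00964). *ppp1r8a*, encoding a nuclear inhibitor of protein phosphatase 1 (chr19:15617404-15617917), had 21.5 and 19.7, against 68.8 and 63.3. Both 12 month libraries of each promoter lay well below both 10 month libraries.

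In other promoters the control library of 12 months lay far below its age mate. *iqgap3*, a cytoskeletal scaffold gene, had 49.1 (cortisol-treated) and 12.4 (control) at 12 months, against 74.5 and 78.4 at 10 months. *unc50* had 45.8 and 16.1, against 76.2 and 75.1. The differences of these 2 were -45.69 and -44.71 points. *rpl19*, a gene of the large ribosomal subunit (chr3:16079651-16080753), had 33.4 and 16.1, against 73.8 and 62.4 (-43.36 points).

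A pair of intergenic regions completed the group. A region 55938 bp from *sox12*, a SoxC transcription factor gene, had percentiles of 42.3 and 4.43 at 12 months, against 78.7 and 62.0 at 10 months. One 11001 bp from *fstb*, which encodes a follistatin, an antagonist of activin, had 13.3 and 12.4, against 62.8 and 54.9. The adjusted p of the 9 regions ran from 0.00893 to 0.0250. Outside the table the falls were -57.06 points at chr8:19945380-19946016, -44.49 at chr8:49076073-49076701 and -43.44 at chr7:30654690-30655167. By height over background, 12067 of all 15148 regions were called lower, so that a lower call kept on that scale says little of a single region. Of the 28 named regions called lower, here and in the gene lists, 0 kept their call without the cortisol-treated library of 10 months, 4 without the control library of 10 months and 14 without the control library of 12 months, whereas all 28 kept it without the cortisol-treated library of 12 months and by height over background.

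**Figure D4:**
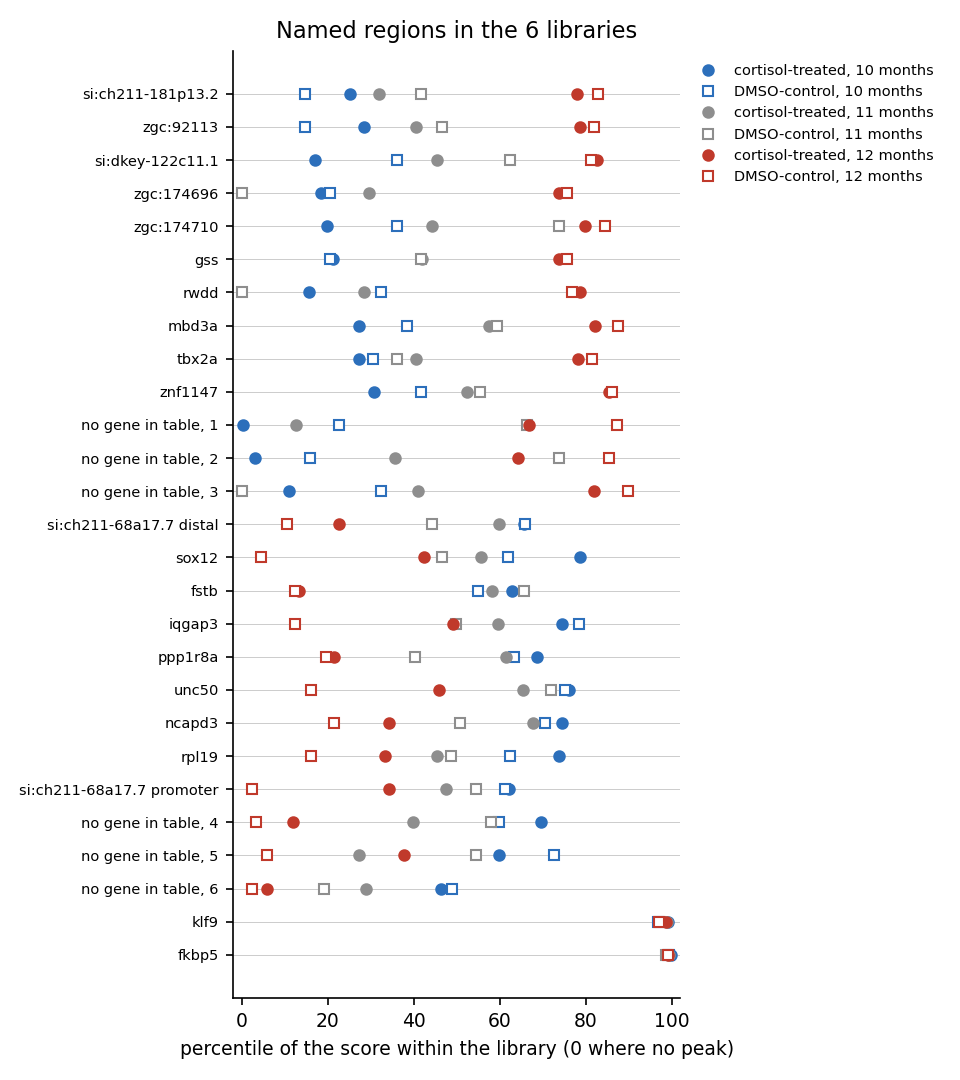
Percentile of the score within each library for the named regions, in the 6 libraries. Filled circles are cortisol-treated and open squares DMSO-control libraries, in blue for 10, grey for 11 and red for 12 months; a library without a peak is drawn at 0. The top 13 rows were called higher at 12 months, the next 12 called lower, and *klf9* and *fkbp5* at the bottom stood above the 96th percentile in all 6 libraries.

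More promoters were called lower than higher at 12 months. Regions that rise in rank push others down, and the part of this in the promoter ranks was not tested. In height over background, promoters had a median difference of -1.65 on the log2 scale, beside -1.42 over all regions. Of 4299 promoter regions, 257 (5.98%) were called lower and 3 (0.0698%) higher at 12 months, with a median of -5.51 points, against -2.25 over all regions. Their median percentiles were 67.4 and 63.9 at 12 months, against 73.2 and 72.1 at 10 months. Both 12 month libraries lay below both 10 month libraries at 2388 promoters (55.5%) and above both at 171 (3.98%), against 36.1% and 19.6% over all regions. The median was -3.78 points in the cortisol-treated pair and -6.36 points in the control pair, and it was -3.16 points without the control library of 12 months. The number called lower was 7 without the cortisol-treated library of 10 months, 29 without the control library of 10 months, 111 without the control library of 12 months and 1151 without the cortisol-treated library of 12 months.

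The 3 promoters called higher are named although they fall outside the rule for named genes, and were thus chosen after their values were seen. *slc25a34*, of the mitochondrial carrier family, had percentiles of 84.2 and 84.4 at 12 months, against 63.3 and 70.6 at 10 months (17.36 points, SE 4.02, adjusted p = 0.0154). *ergic1*, whose product cycles between the endoplasmic reticulum and the Golgi, had 83.6 and 89.4, against 77.8 and 72.9 (11.21 points). *herpud2* had 85.2 and 90.3, against 75.1 and 82.6 (8.90 points). Over background all 3 were lower at 12 months, by -0.62, -0.82 and -0.91 on the log2 scale, which was less than the median shift of -1.42.

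Genes for cytosolic ribosomal proteins had the most promoters called lower among the gene lists. Of 62 promoter regions of 61 such genes, 15 (24.2%) were called lower and 0 higher, beside 5.98% and 0.0698% of all promoters. The median was -9.52 points, against -5.51 over all promoters, and 61 of the 62 differences were negative. Both 12 month libraries lay below both 10 month libraries at 49 of the 62 (79.0%), beside 55.5% of all promoters. Negative differences also prevailed in other lists, with 24 of 27 at erythroid and 16 of 24 at interferon and inflammation promoters. Besides *rpl19*, the largest falls were at *rps3* (-30.36 points), *rpl28* (-21.22 points) and *rps4x* (-18.66 points). *rps3* had percentiles of 59.0 and 37.7 at 12 months, against 75.6 and 81.8 at 10 months. *rps9*, of the small subunit, had the smallest adjusted p of the list, 0.00250, with 87.7 and 83.3, against 95.8 and 94.9. The promoters of *rplp0* and *rpl13a*, which ranked highest among those not called, differed by -0.59 (adjusted p = 0.787) and -3.87 points (adjusted p = 0.108). Both were picked for high rank, where a change in height moves the percentile little. In log2 height, centred on the median of each library, they differed by -0.13 and -0.46, beside a list median of -0.535. The number called lower was 0 without the cortisol-treated library of 10 months, 1 without the control library of 10 months, 4 without the control library of 12 months and 29 without the cortisol-treated library of 12 months.

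Among genes of the cell cycle and of DNA replication, 4 of 37 promoter regions of 36 genes (10.8%) were called lower and 0 higher, beside 5.98% and 0.0698% of all promoters. The median was -7.13 points, against -5.51 over all promoters, and 36 of the 37 differences were negative. Both 12 month libraries lay below both 10 month libraries at 27 of the 37 (73.0%), beside 55.5% of all promoters. *orc5*, a subunit of the origin recognition complex, had percentiles of 32.6 and 23.5 at 12 months, against 67.5 and 61.6 at 10 months (-36.52 points, SE 9.79, adjusted p = 0.0316). *e2f3*, a transcription factor of the G1 to S transition, had 49.1 and 42.6, against 76.8 and 75.4 (-30.24 points). *mcm4*, a subunit of the replicative helicase, had 70.12 and 60.59, against 85.7 and 81.6 (-18.32 points). *pold1*, the catalytic subunit of DNA polymerase delta, had 70.4 and 62.0, against 80.6 and 82.4 (-15.32 points, adjusted p = 0.0494). *e2f7* and *cdc25b*, the highest ranking of those not called, differed by -2.05 and -2.43 points. In centred log2 height they differed by -0.31 and -0.35, beside a list median of -0.37. The number called lower was 0 without either 10 month library, 1 without the control library of 12 months and 11 without the cortisol-treated library of 12 months.

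Most erythroid promoters with a peak in all 4 libraries were not called. The list of 45 erythroid genes had 27 promoter regions of 25 genes, at mean percentiles from 43.4 to 98.4 with a median of 80.1. Of the 27, 2 (7.41%) were called lower and 0 higher, beside 5.98% and 0.0698% of all promoters. The median was -5.96 points, close to the -5.51 of all promoters, but at high rank a change in height moves the percentile little. In centred log2 height the median difference of the list was -0.44, beside -0.29 for all promoters. Both called regions were nearest to *hbaa1*, an adult alpha globin gene. The first (chr3:54845144-54846351) had percentiles of 91.9 and 84.8 at 12 months, against 97.7 and 92.8 at 10 months (-6.86 points, SE 1.46, adjusted p = 0.00997). The second (chr3:54850189-54852420) had 92.2 and 90.8, against 98.6 and 96.3 (-5.96 points, SE 1.19, adjusted p = 0.00698). Neither kept its call without the cortisol-treated library of 10 months. Globin genes occur as near-identical copies, and reads that fit several of them could be placed at any.

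Other erythroid promoters differed by less than their error allowed to be called. *tal1* had 87.2 and 84.0 at 12 months, against 91.0 and 92.8 at 10 months (-6.31 points, SE 1.89, adjusted p = 0.0532). *gata1a* had 79.3 and 67.4, against 82.7 and 79.3 (-7.69 points, SE 3.77, adjusted p = 0.239). *alas2*, the first enzyme of heme synthesis in red cells, had 75.0 and 72.3, against 76.2 and 80.1 (-4.50 points). *slc4a1a*, the band 3 anion exchanger of the red cell membrane, and *blvrb*, a biliverdin reductase gene, stood above the 96th percentile in all 4 libraries and differed by -0.68 and -0.11 points.

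Few regions of other blood cells were measured. Promoter regions with a peak in all 4 libraries were found for 2 thrombocyte genes, 1 myeloid gene and 1 lymphoid gene of the lists, and the limits of the annotated table bear on this count. *gp1bb*, a subunit of the platelet receptor for von Willebrand factor, had 92.3 and 88.7 at 12 months, against 90.5 and 93.9 at 10 months. *f13a1b*, a coagulation factor XIII gene, had 77.9 and 78.1, against 84.2 and 82.1. *cyba*, a subunit of the phagocyte NADPH oxidase, had 48.5 and 41.4, against 57.6 and 56.6, and *runx3*, a transcription factor of lymphoid cells, had 56.6 and 71.5, against 58.8 and 66.2. Their differences of -1.69, -5.16, -12.15 and 1.57 points did not pass the test. The share of each cell type in the pools was not measured, and its part in the results was not tested.

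The glucocorticoid-responsive genes that frame the study ranked near the top at both ages. *klf9*, a Krüppel-like factor gene induced by glucocorticoids (promoter, chr5:25474671-25476616), had percentiles of 98.8 and 97.1 at 12 months, against 99.1 and 96.7 at 10 months. Its difference was 0.01 points (SE 0.94, adjusted p = 0.996). *fkbp5*, which encodes a cochaperone that restrains the glucocorticoid receptor (chr6:41097916-41098876), had 99.3 and 99.2, against 99.7 and 99.3 (-0.29 points, SE 0.85, adjusted p = 0.875). Ranks this high have little room to rise. The summit of *klf9* reached 739 and 355 reads at 12 months, against 529 and 425 reads at 10 months, and the summit of *fkbp5* reached 866 and 669 reads, against 705 and 711 reads. Over background the differences were -1.36 and -1.37 on the log2 scale, beside a median of -1.42 over all regions.

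Of the 16 promoter regions of the glucocorticoid-responsive list, 1 was called lower and 0 higher, with a median of -0.85 points. Their mean percentiles had a median of 93.0, where a change in height moves the percentile little. In centred log2 height their median difference was -0.18, beside -0.29 for all promoters. The called one was *gadd45aa*, a gene of the growth arrest and DNA damage response, with 82.9 and 84.0 at 12 months, against 91.25 and 90.03 at 10 months (-7.20 points, adjusted p = 0.0359). *txnipa* and *sgk1* ranked above the 99th percentile in all 4 libraries and differed by -0.42 and -0.39 points. *nr3c1*, the glucocorticoid receptor gene, had 86.6 and 78.4, against 89.3 and 87.6 (-5.999 points, SE 2.37, adjusted p = 0.139).

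The circadian, the immediate early and heat shock, and the ageing and nutrient signalling lists each had a single promoter called, and it was lower. Among circadian genes it was 1 of 24, *cry1aa*, a cryptochrome of the clock's repressor arm, with percentiles of 72.7 and 59.3 at 12 months, against 87.3 and 88.1 at 10 months (-21.71 points, SE 4.20, adjusted p = 0.00583), while *nr1d2a* and *per1b* differed by -0.65 and -2.04 points. Among immediate early and heat shock genes it was 1 of 31, *klf2b* (-9.64 points, adjusted p = 0.0177), while *klf6a* and *hspa5* differed by -0.29 and -0.27 points. Among genes of ageing and nutrient signalling it was 1 of 34, *keap1a*, an inhibitor of the oxidative stress factor Nrf2 (-12.40 points, adjusted p = 0.0172), while *keap1b* and *mtor* differed by 0.15 and -1.56 points. Of 24 promoters of interferon and inflammation genes 0 were called, and the highest ranking, *stat3* and *crfb1*, differed by -0.34 and -0.16 points. In every list the examples not called were picked for high rank, so few points do not mean unchanged height. In centred log2 height *nr1d2a* and *per1b* differed by -0.14 and -0.48.

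Chromatin and DNA methylation genes had 3 of 49 promoters called lower and 0 higher, with a median of -0.77 points. *smc1al*, a cohesin subunit, had percentiles of 76.8 and 66.0 at 12 months, against 87.3 and 87.9 at 10 months (-16.16 points). *setd1ba*, a histone H3 lysine 4 methyltransferase, had 79.0 and 77.2, against 87.0 and 88.6 (-9.66 points). *ezh2*, the methyltransferase of Polycomb repressive complex 2, had 86.0 and 78.4, against 91.5 and 89.0 (-8.10 points). *sin3aa* and *kdm2aa*, the highest ranking of those not called, differed by -0.32 and -0.77 points. The shares called lower in these lists and the glucocorticoid-responsive one ran from 0 to 6.25%, beside 5.98% of all promoters. Without the cortisol-treated library of 10 months none of the named promoters of the lists kept its call.

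**Figure D5:**
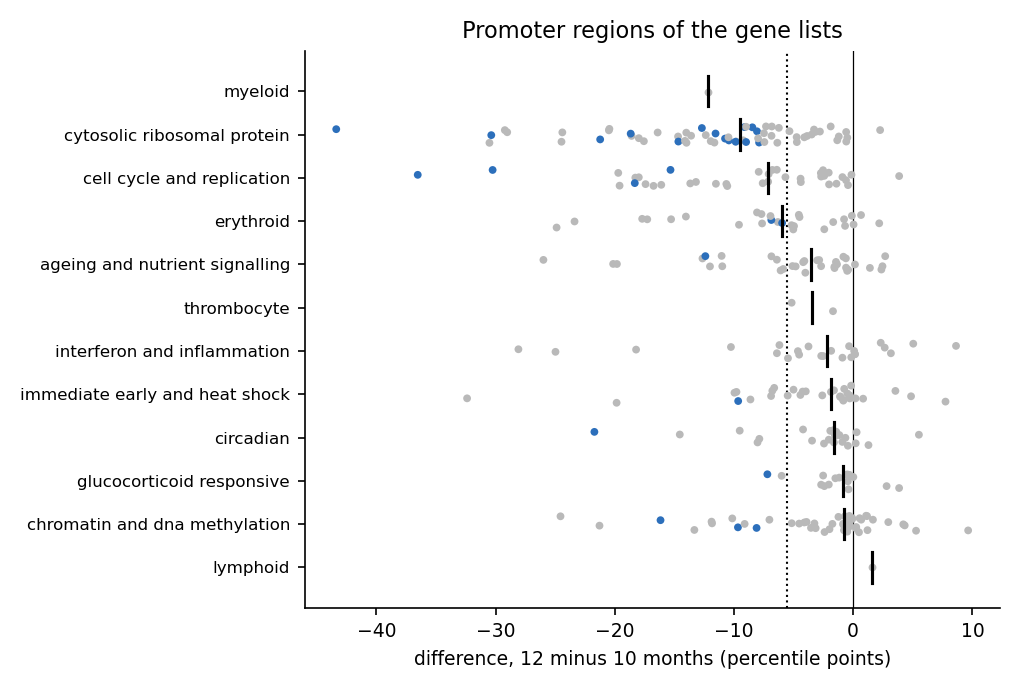
Difference in percentile between 12 and 10 months (points, horizontal axis) for the promoter regions of the 12 gene lists. Each point is a region, blue where called lower at 12 months and grey where not called; black bars are list medians and the dotted line is the median of all promoters, -5.51 points. Ribosomal protein promoters, with 15 blue points, have a median of -9.52 points.

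Outside promoters, 5 of 307 regions of list members described here (1.63%) were called higher, beside 195 of 4341 (4.49%) of all regions of the table that were no promoters. All 5 were 317 to 343 bp wide. A repeat was named at 4 of them. Besides *mbd3a* they were chosen after their values were seen. The region near *rhag*, a Rhesus-associated glycoprotein gene of red cells, carried a DIRS1a element (chr20:14159603-14159945) and had percentiles of 94.5 and 97.2 at 12 months, against 68.3 and 80.4 at 10 months (21.49 points, SE 2.61, adjusted p = 0.000546). An intronic DIRS1a region 98760 bp from the start of *nr3c2*, the mineralocorticoid receptor gene (chr1:36257068-36257388), had 93.4 and 96.8, against 61.1 and 78.6 (25.26 points, SE 3.34, adjusted p = 0.000759). The others were nearest to *rag2* (30.93 points) and *akt3a* (24.41 points), each over 100 kb away. The *rhag* promoter itself had 45.1 and 50.9 at 12 months, against 59.9 and 64.1 at 10 months, and was not called (-14.03 points, adjusted p = 0.349).

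The 11 month libraries took no part in the test. Both of their percentiles lay between the 2 age means at 667 of the 1363 regions called higher (48.9%) and at 266 of the 393 called lower (67.7%), beside 3157 of all 15148 (20.8%); a called region has its age means farther apart, which widens the space between them. At the regions called higher, the median percentile of the cortisol-treated libraries was 23.8, 38.9 and 70.7 at 10, 11 and 12 months, and that of the controls was 33.4, 68.6 and 81.6. At the regions called lower, the cortisol-treated libraries had medians of 86.8, 83.9 and 75.2, and the controls had 85.7, 81.8 and 67.9. The cortisol-treated library of 11 months thus stood nearer to the 10 month libraries, and the control library of 11 months nearer to the 12 month libraries, in the higher set. Median enrichment over background ran in the same order, with 27.7, 17.3 and 12.9 for cortisol-treated fish and 20.7, 6.86 and 6.74 for controls at 10, 11 and 12 months, and its part in the ranks was not tested.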

How the data were processed

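The authors trimmed the reads with Trimmomatic 0.32, kept 30 bp of each and mapped them with Bowtie 1.0.0 (genome GRCz10). Mitochondrial hits were dropped, and peaks of each library were called by the authors with MACS2 2.1.1.20160309 at a q-value of 0.001 with duplicates kept. The deposited score is 10 times the -log10 q-value of a summit against 1 background per library. The authors' table, annotated with HOMER 4.8, was used only for positions, repeat and gene names; its differential score, the pooled lists and the lists of differences hold the authors' own comparison and were not used.

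Peaks overlapping by 1 bp were joined, and each region took its highest score in a library. Percentiles among regions with a peak in all 4 libraries were tested with limma 3.58.1 in R 4.3.3 (treatment as block, variance trend, 1 residual degree of freedom, Benjamini-Hochberg, threshold 0.05). Background and height in reads were recovered from the score steps. The recovery was tried on simulated lists built with the same score model, which cannot show whether the deposited scores follow that model. Total read numbers were not at hand, so depth is known only through the background. Tables were handled in pandas 2.3.3 and numpy 2.4.6 under Python 3.11.15, normal scores with scipy 1.17.1 and figures with matplotlib 3.10.9.

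The members and the gene lists were chosen with earlier results of these data known. Named were the 10 called regions in the table that differed most in each direction, with the same sign in both pairs; the 3 outside the table; *klf9* and *fkbp5*; and per list up to 4 called promoters and the 2 highest ranking not called. Alternatives covered the unit, overlap, score minimum of 100, libraries in the fit and leaving out each library. A selected region of the called-lower group and a called-higher list region are not reported here. No genome sequence was used.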

Additional observations from a re-analysis of the deposited data

Results flagged for a closer look

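The difference between 12 and 10 months had opposite signs in the cortisol-treated and the control pair at 7 of the named promoters, with 1 pair of libraries each, and this difference between treatments was not tested. *runx3* differed by -2.21 points in the cortisol-treated pair and 5.34 in the control pair. *gp1bb* differed by 1.82 and -5.20 points, and *e2f7* by 0.24 and -4.34 points. The remaining 4 moved by less than 1.5 points in either pair: 0.0132 and -1.37 at *slc4a1a*, 0.59 and -0.91 at *crfb1*, 0.33 and -0.55 at *blvrb*, and -0.35 and 0.38 at *klf9*. None of the 7 passed the test between ages.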

How the results depend on the processing

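The main counts were 1756 regions called, 1363 higher and 393 lower at 12 months. Age alone, without treatment, gave 1175, 1027 and 148. Normal scores gave 868 lower, the log2 recovered height 719 lower, and no variance trend 0, 0 and 0. The following alternatives were chosen after seeing the data: height over background without centring, which gave 12089, 22 and 12067, and leaving out distal chromosome 4, which gave 1236 higher and 380 lower. Leaving out each library (age alone, the single library left at an age assumed to vary like the others) gave 697 to 4163 called, 689 to 2013 higher and 8 to 2150 lower, and a promoter median of -6.83 to -3.16 points. The higher share of calls was 77.6% in the main fit and 63.7% to 98.9% over the percentile, score and centred height settings with calls, except without the cortisol-treated library of 12 months (48.4%); over background it was 0.18%. The direction held at all 41 named called regions under every setting that gave them a value. Those regions were picked as called and the settings mostly reuse the same 4 libraries, so a reversal was unlikely beforehand. *runx3*, not called, was -1.35 (log2) over background and passed the threshold there, against 1.57 points. No paired analysis was possible beyond the treatment block, because replicate numbers coincide with age. The spread rests on 1 residual degree of freedom, borrowed across regions, so that the calls depend on how variance is shared. The smallest permutation p with 4 libraries is 0.333.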
